A study of Mus musculus with 4 samples.

Results

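The centromere, kinetochore and mitotic checkpoint genes are a set of 42 named genes, of which 41 were measured among the 18193 genes of the array, and the cyclin gene Ccnb1 was not analysed here. They were chosen by symbol, and each is represented by 1 probe set (a group of short probes for 1 gene), the one with the highest mean log2 intensity over the 4 arrays. RNA was compared between CLP_RAGhigh and CLP_RAGlow cells, with 2 arrays of each. Both are fractions of the common lymphoid progenitor (CLP), a bone marrow cell with the potential to form the B, T and natural killer lineages. All cells came from the bone marrow of C57Bl6 mice aged 8 to 12 weeks, 2000 per sample, and the fractions were sorted by high or low GFP. The labels do not say what drives the GFP, which other alleles the mice carried, or whether animals were pooled. Replicates are called biological with no further description, so no SE or p below reaches beyond these samples. Each SE comes from limma, which draws the variance of a gene toward that of genes of like intensity. It can therefore be larger or smaller than the spread between that gene's own replicates.

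The kinetochore is the protein structure that assembles on each centromere and attaches chromosomes to the mitotic spindle. Its inner layer is built on nucleosomes that hold the histone variant CENP-A, and its outer layer binds microtubules. Kinetochores that are not attached activate the spindle checkpoint, which holds back the APC/C, the ubiquitin ligase complex that starts anaphase once its activator CDC20 is released. The chromosomal passenger complex, with the kinase Aurora B, detaches faulty connections. Many of these genes are transcribed mainly in the G2 and M phases, so their RNA is widely used as a sign of dividing cells, and early lymphoid progenitors include both dividing and resting cells.

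The promoters of such genes often hold a CCAAT box and a short element called the cell cycle homology region, through which transcription is kept low outside G2 and M. Promoters from RefSeq (GRCm38.p6, 250 bases before to 50 after the start) were found for 34 of the 41 genes, which had 38 promoters. The homology region was searched as TTTGAA or TTCGAA, the CCAAT box as CCAAT, and the binding site of E2F factors as TTTGGCGC, TTTCCCGC, TTTCGCGC or TTTGCCGC, all on both strands. The homology region letters were in 19 of the 38 promoters and in 19.2% of all 32851 promoters of the same length. The CCAAT letters were in 27 (71.1%), against 37.4% of all promoters, and an E2F site was in 3 (7.89%), against 2.26%. The upstream 250 bases are shown for the 4 members with the smallest limma p that hold the homology region there, 5′ to 3′, with all matches in capitals.
Cdc20 promoter, chr4:118437344-118437593, minus strand: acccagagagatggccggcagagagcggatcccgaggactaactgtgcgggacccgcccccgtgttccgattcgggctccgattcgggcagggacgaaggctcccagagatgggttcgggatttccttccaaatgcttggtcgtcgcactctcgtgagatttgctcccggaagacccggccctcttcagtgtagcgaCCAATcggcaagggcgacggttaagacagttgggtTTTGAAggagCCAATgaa
Ccnb2 promoter, chr9:70421555-70421804, minus strand: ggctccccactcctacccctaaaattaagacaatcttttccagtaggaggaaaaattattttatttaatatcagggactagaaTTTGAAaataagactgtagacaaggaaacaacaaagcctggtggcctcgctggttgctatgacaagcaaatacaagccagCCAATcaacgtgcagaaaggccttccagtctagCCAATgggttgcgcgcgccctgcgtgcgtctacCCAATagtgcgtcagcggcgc
Pmf1 promoter, chr3:88410398-88410647, minus strand: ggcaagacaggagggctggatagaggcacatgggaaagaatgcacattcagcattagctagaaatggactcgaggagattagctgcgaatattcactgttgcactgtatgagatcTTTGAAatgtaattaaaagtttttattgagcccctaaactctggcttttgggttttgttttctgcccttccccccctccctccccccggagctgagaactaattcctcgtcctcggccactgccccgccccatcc
Cenpm promoter, chr15:82244337-82244586, minus strand: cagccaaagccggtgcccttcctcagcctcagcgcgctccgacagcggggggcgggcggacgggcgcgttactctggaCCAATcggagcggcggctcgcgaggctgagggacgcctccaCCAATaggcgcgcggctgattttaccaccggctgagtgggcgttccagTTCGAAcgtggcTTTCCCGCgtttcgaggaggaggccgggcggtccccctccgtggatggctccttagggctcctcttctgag
In the Cdc20 promoter the homology region begins 18 bases before the start and lies between both CCAAT boxes. The Ccnb2 promoter has 3 CCAAT boxes, at 87, 54 and 21 bases before the start. The letters of the homology region occur farther out, at 167, and again 4 bases past the start. Here and in the other promoters, a match of letters does not show that the element acts there, which was not tested. Cenpm holds 2 CCAAT boxes, a homology region 83 bases before the start and an E2F site at 71. In the bases shown for Pmf1 the only match is a homology region, 135 bases before the start, and beyond them a CCAAT box lies 27 bases after it. Of the 14 genes with a promoter whose arrays did not overlap between the groups, 9 held the homology region, as did 9 of the other 20.

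As a set, the members had lower means in CLP_RAGhigh, but the arrays within each group lay far apart. The CLP_RAGhigh mean was the lower one for 36 of 41 members and the higher one for 5, where it was lower for 49.4% of all genes. The median log2 difference, CLP_RAGhigh minus CLP_RAGlow, was -0.45, against 0.0028 over all genes, and single members ran from -2.66 (Cenpp) to 0.29 (Aurka). The median was -0.27 without CLP_RAGhigh replicate 1, -0.81 without CLP_RAGhigh replicate 2 and -0.69 without CLP_RAGlow replicate 1. At least 1 log2 unit lower were 15 members (3.18% of all genes), and 0 were as far above (2.43% of all genes). With limma across all genes 0 members passed at an adjusted p under 0.05, as did 0% of all genes, and the lowest adjusted p of a member was 0.282. An unadjusted limma p under 0.05 was found for 9 members, all lower in CLP_RAGhigh, where 2.94% of all genes were (2.35% were higher). Both CLP_RAGhigh arrays lay below both CLP_RAGlow arrays for 17 members, against 15.8% of all genes, and 0 members lay wholly above, against 15.4%. Without CLP_RAGhigh replicate 2 the count of 9 became 14 (3.74% of all genes), and without CLP_RAGlow replicate 2 it became 4 (1.95%). In bulk samples such as these, fewer dividing cells and less RNA per dividing cell cannot be told apart.

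**Figure D1:**
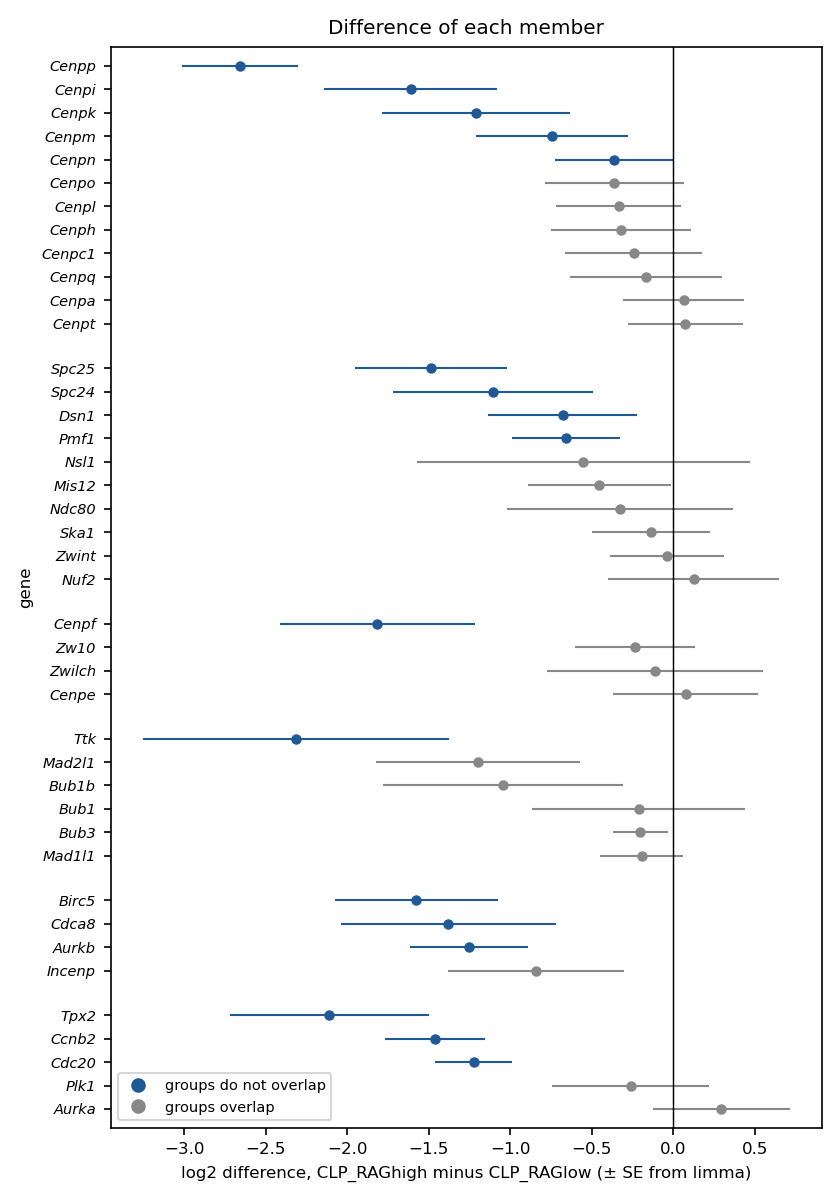
Log2 difference, CLP_RAGhigh minus CLP_RAGlow, with its standard error from limma, for each of the 41 members, grouped by role in the order of the text from the inner kinetochore at the top. Blue points are the 17 members whose groups did not overlap, all to the left of 0, and grey points the others.

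The 4 arrays also differed within the groups, and 2 of them stood at the ends for most members. CLP_RAGhigh replicate 1 was the lowest of the 4 arrays for 23 of 41 members (56.1%, against 32.9% of all genes), and CLP_RAGlow replicate 2 was the highest for 22 (53.7%, against 18.2%). The median deviation of the members from their own mean over the 4 arrays was -0.62 on CLP_RAGhigh replicate 1, -0.0077 on replicate 2, 0.10 on CLP_RAGlow replicate 1 and 0.48 on replicate 2. Between these outer arrays 37 of 41 members were higher on the CLP_RAGlow array (51.3% of all genes), with a median gap of 1.13. Between the inner arrays, CLP_RAGhigh replicate 2 and CLP_RAGlow replicate 1, 22 were (47.4% of all genes), with a median gap of 0.0695. The pair of both replicates 1 gave 30 members (58.3% of all genes) and a median gap of 0.60, and the pair of both replicates 2 gave 31 (41.7%) and 0.50. Replicate 2 lay above replicate 1 in both groups, for 31 members in CLP_RAGhigh (58.6% of all genes, median gap 0.56) and for 32 in CLP_RAGlow (42.4%, median gap 0.33). The median absolute gap between replicates was 0.79 within CLP_RAGhigh and 0.53 within CLP_RAGlow for the members, and 0.34 and 0.25 for all genes. For 11 of 41 members, all lower in CLP_RAGhigh, the difference between group means was larger than the gap within either group. Of all genes 20% met this, counted in either direction.

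**Figure D2:**
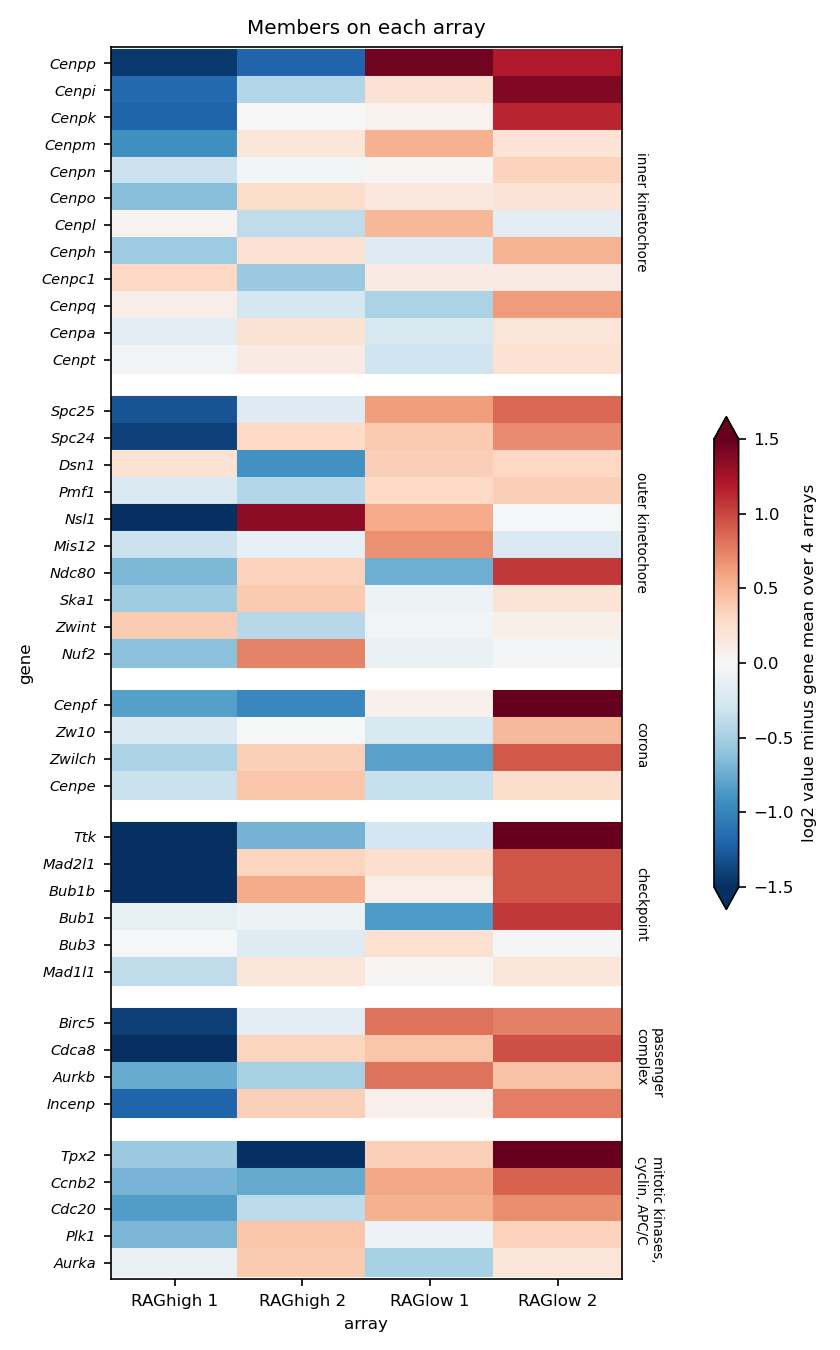
Log2 value of each member on each array minus the member's mean over the 4 arrays, in colour from blue (below) to red (above), clipped at 1.5 log2 units either way and grouped by role. The first column, CLP_RAGhigh replicate 1, was lowest for 23 of 41 members and the last, CLP_RAGlow replicate 2, highest for 22.

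Other features of these arrays moved as well. For Actb the signal at the 3′ end over that at the 5′ end, which grows as RNA copies get shorter, was 16.2 and 9.62 in CLP_RAGhigh and 13.5 and 24.5 in CLP_RAGlow (replicates 1 and 2). Markers of the labelled cell (9 of 10 measured) were present, with Flt3 between 10.65 and 11.17 and Il7r between 10.24 and 11.81. Of these 9, 5 lay wholly higher in CLP_RAGhigh (15.4% of all genes), Il7r among them, and 1 wholly lower (15.8%). Rag1 was at 10.92 and 10.62 in CLP_RAGhigh against 7.72 and 8.53 in CLP_RAGlow, and Ly6d at 8.86 and 8.75 against 5.88 and 6.72. Of 10 granulocyte and monocyte markers 10 were measured, with summed intensities of 4204 and 4438 in CLP_RAGhigh and of 5998 and 3266 in CLP_RAGlow. Within that list Ngp, S100a8, S100a9 and Camp, genes of neutrophils, were between 3.55 and 3.81 on CLP_RAGlow replicate 2 and at 6.86 or higher on the other 3 arrays. On that array 2 of the 10 were highest, Csf1r (9.54) and Mpo (11.03, against 10.70 to 10.91 elsewhere). Prtn3, Lyz2, Ctsg and Elane were neither highest nor lowest there. Erythroid markers (6 of 8 measured) summed to 393.5 and 157.7 in CLP_RAGhigh and to 214.1 and 90.8 in CLP_RAGlow, highest and lowest on the same outer arrays as the members but in the opposite direction. Klf1, an erythroid transcription factor, was at 6.94 and 6.05 against 5.24 and 3.70, and without it the sums were 270.9 and 91.5, then 176.2 and 77.9. Car1 was at 7.15 on CLP_RAGhigh replicate 1 and at 4.30 or lower on the others. Slc4a1 was highest on CLP_RAGlow replicate 1 (6.37), and Epor differed by -0.0041. The globin gene Hba-a1 was at 3.28 or lower on every array. Immediate early genes (8 of 8 measured), induced by stimulation or handling, summed to 6191 on CLP_RAGhigh replicate 1 and to between 392 and 607 on the other 3, and without Fos to 1249 and to between 356 and 452. Pro-B and B-cell markers (6 of 7 measured) summed to 1874 and 1532 in CLP_RAGhigh and to 282 and 235 in CLP_RAGlow. Most of that sum was Vpreb1, part of the surrogate light chain, and without it the sums were 193 and 178 against 97.2 and 74.5. Plasmacytoid dendritic cell markers (6 of 6) summed to 850 and 1823, then 2046 and 2222, and without Ccr9 to 487 and 811, then 1111 and 1102. Of these markers 3 lay wholly lower in CLP_RAGhigh (15.8% of all genes) and 1, Siglech, wholly higher (15.4%). Megakaryocyte and mast-cell markers (6 of 6) summed to 123 and 198, then 178 and 181. T-cell and natural killer markers (7 of 8) summed to 106 and 107, then 91.7 and 95.4, and 4 of them, among them Cd3d and Cd3g, were on every array below 3.88, the median log2 intensity over all probe sets. A probe set with both group means below that median is called dim. The part of these values in the results for the members was not tested.

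In the inner kinetochore the largest difference of all members was that of Cenpp, while 7 of the 12 genes, Cenpa among them, overlapped between the groups. Of these 12 genes, 10 had a lower mean in CLP_RAGhigh, 5 did not overlap with CLP_RAGhigh lower (15.8% of all genes), 2 had an unadjusted p under 0.05 (2.94% of all genes) and 0 passed over all genes, with a median difference of -0.35. Cenpp, a subunit of the centromere-associated network that binds CENP-A nucleosomes, had log2 intensities of 4.88 and 5.13 in CLP_RAGhigh and of 7.79 and 7.54 in CLP_RAGlow. The groups lay 2.41 apart at their nearest arrays, while replicates differed by only 0.25 in each group. The difference of means was -2.66 ± 0.36 (SE, n = 2 per group), or 6.31-fold, with limma adjusted p = 0.282, and it was -1.87 with an offset of 32 added before log2, which shrinks differences between dim values. A second probe set was at 2.23 and 2.74 in CLP_RAGhigh, below the median of all probe sets, and at 5.28 and 6.11 in CLP_RAGlow, and the third was dim. Inside or across the Cenpp locus RefSeq places Ippk, Ecm2, Aspn, Omd, Ogn and the pseudogene Tes3-ps, and their differences ran from -0.26 to 0.023. The Cenpp promoter held none of the letters searched for.

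Cenpi, another subunit of that network, had values of 4.97 and 5.71 against 6.37 and 7.53. These groups did not overlap, with CLP_RAGlow replicate 2 well above the rest, and the difference was -1.61 ± 0.53 (limma adjusted p = 0.869). Cenpk, at 6.37 and 7.59 against 7.66 and 8.73, did not overlap either, but its nearest arrays were 0.0695 apart. For Cenpm and Cenpn the differences of -0.74 and -0.36 came with nearest arrays 0.029 and 0.055 apart. Cenpq had values of 7.98 and 7.63 in CLP_RAGhigh and of 7.42 and 8.53 in CLP_RAGlow, so that both CLP_RAGhigh arrays lay between the CLP_RAGlow arrays. Cenpt, which links the inner layer to the NDC80 complex, was at 7.84 and 8.01 against 7.58 and 8.11, and its groups overlapped too. Cenpa, the centromeric histone itself, differed by 0.063 ± 0.37, and Cenpc1, which binds its nucleosomes, by -0.24 ± 0.42. Cenph, Cenpl and Cenpo overlapped, at -0.32, -0.34 and -0.36. The other probe sets of Cenpo, some of them dim, ran from -0.058 to 0.47. Those at 0.38, 0.38 and 0.47 lay wholly higher in CLP_RAGhigh.

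In the outer kinetochore, which grips microtubules through the NDC80 complex, the subunits of that complex gave unequal values. Of 10 genes, 9 had a lower mean in CLP_RAGhigh, 4 did not overlap (15.8% of all genes) and 1 had an unadjusted p under 0.05 (2.94%), with a median of -0.50. Spc25, of the NDC80 complex, had values of 6.29 and 7.40 in CLP_RAGhigh and of 8.22 and 8.45 in CLP_RAGlow. All CLP_RAGhigh values were lower, and the difference was -1.49 ± 0.47 (limma adjusted p = 0.858). A second, weaker probe set of the gene, with means of 4.04 and 4.08, gave -0.037. Its partner Spc24 differed by -1.10 ± 0.61, with CLP_RAGhigh replicate 1 at 5.02 and the other arrays between 6.72 and 7.13. The other subunits, Ndc80 at -0.33 ± 0.69 and Nuf2 at 0.13 ± 0.53, overlapped. Whether subunits differ from each other was not tested.

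Among the MIS12 complex, the platform between the layers, Dsn1 had values of 8.07 and 6.93 against 8.21 and 8.16. It did not overlap, but here CLP_RAGhigh replicate 2 was the low array, and the difference was -0.68 ± 0.46. Pmf1 differed by -0.66 ± 0.33 with nearest arrays 0.51 apart, and a second probe set gave -0.068. Mis12 differed by -0.45 ± 0.44 and overlapped. Nsl1 had the widest gap within a group, at 3.63 and 6.85 in CLP_RAGhigh against 6.08 and 5.50. Zwint, which ties the checkpoint complex to the outer layer, was at 9.28 and 8.49 in CLP_RAGhigh and at 8.85 and 8.99 in CLP_RAGlow, a difference of -0.038 ± 0.35 between overlapping groups. Its 7 probe sets ran from -0.038 to 1.64. Ska1, which helps kinetochores follow shrinking microtubules, was dim, at 3.18 and 4.11 against 3.64 and 3.92, and its 2 other probe sets, also dim, lay wholly lower in CLP_RAGhigh (-0.91 and -0.67).

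The fibrous corona, the outermost and transient layer, held 4 members, of which Cenpf did not overlap between the groups (15.8% of all genes) and the other 3 did. Cenpf, a large coiled-coil protein made in G2, had values of 6.15 and 5.999 in CLP_RAGhigh and of 7.06 and 8.72 in CLP_RAGlow. Both CLP_RAGhigh arrays were low and alike, and CLP_RAGlow replicate 2 was 1.66 above its replicate. The difference was -1.81 ± 0.60 (limma adjusted p = 0.869). Its other probe sets, both dim, gave -0.012 and 0.15, and with all probe sets of Cenpf averaged the difference was -0.56. Zw10, of the complex that recruits dynein, was at 8.06 and 8.28 against 8.05 and 8.77, with overlap and a difference of -0.24 ± 0.37. Zwilch, its partner, was at 6.49 and 7.31 against 6.14 and 7.88, so that the CLP_RAGlow arrays enclosed both others. The motor gene Cenpe differed by 0.076 ± 0.45, with a second probe set at -0.78.

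All 6 checkpoint genes had a lower mean in CLP_RAGhigh (49.4% of all genes), and 0 had an unadjusted limma p under 0.05 (2.94% of all genes). The groups overlapped for 5 of them and not for 1 (16.7%), near the 15.8% of all genes that lay wholly lower. With only 6 genes these counts say little. The median difference was -0.63. Mad2l1, whose protein holds CDC20 inactive, was at 8.02 and 9.89 in CLP_RAGhigh and at 9.81 and 10.50 in CLP_RAGlow. Its low value was on CLP_RAGhigh replicate 1 only, and replicate 2 stood above CLP_RAGlow replicate 1, for a difference of -1.20 ± 0.63. Bub1b, which encodes the checkpoint protein BUBR1, showed the same order of arrays, at 7.08 and 9.23 against 8.77 and 9.62, with a difference of -1.04 ± 0.74 that was 0.033 without CLP_RAGhigh replicate 1. A second probe set of Bub1b gave 5.79 and 8.12 against 7.51 and 8.63.

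Ttk, the kinase MPS1 that starts checkpoint signalling, was the checkpoint gene that did not overlap, at 3.57 and 4.46 against 4.90 and 7.76. Much of its difference of -2.32 ± 0.94 lay on CLP_RAGlow replicate 2, and without that array it was -0.88. Bub3, the adaptor that brings BUB1 and BUBR1 to kinetochores, was at 11.05 and 10.87 against 11.30 and 11.03, and differed by -0.20 ± 0.17 with overlap. One of its weaker probe sets gave 1.58, in the other direction. Bub1 had CLP_RAGhigh values of 5.51 and 5.57 between CLP_RAGlow values of 4.79 and 6.70. Mad1l1, the anchor of MAD2 at the kinetochore, was dim, at 2.83 and 3.39 against 3.23 and 3.39.

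The 4 genes of the chromosomal passenger complex each had a lower mean in CLP_RAGhigh, with differences at or below -0.84 and a median of -1.32. Of these, 3 did not overlap (15.8% of all genes), 2 had an unadjusted limma p under 0.05 (2.94% of all genes) and 0 passed over all genes. CLP_RAGhigh replicate 1 was the lowest array for all 4, and without it the differences were -0.0587 for Incenp, -0.36 for Cdca8 and -0.95 for Birc5. Aurkb, the kinase of the complex, was at 6.44 and 6.69 in CLP_RAGhigh and at 8.00 and 7.63 in CLP_RAGlow. Replicates lay close together in both groups, and the difference was -1.25 ± 0.36 or 2.38-fold (limma adjusted p = 0.813), with the same -1.25 from the second probe set. Birc5, also called survivin, was at 4.49 and 5.75 against 6.73 and 6.67. The CLP_RAGlow arrays were alike, CLP_RAGhigh replicate 1 was lowest, and the difference was -1.58 ± 0.50 (limma adjusted p = 0.865).

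Cdca8, which encodes borealin, was at 7.96 and 10.01 in CLP_RAGhigh and at 10.10 and 10.64 in CLP_RAGlow. Here again CLP_RAGhigh replicate 1 was far below the other arrays, whose nearest values were 0.083 apart between the groups. Its difference was -1.38 ± 0.66, and its 3 probe sets ran from -1.38 to -1.21. Incenp, the scaffold of the complex, was at 8.87 and 10.44 against 10.15 and 10.84 and overlapped, for a difference of -0.84 ± 0.54. Another probe set of Incenp did not overlap, at 5.86 and 6.11 against 6.93 and 7.21, and gave -1.08.

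**Figure D3:**
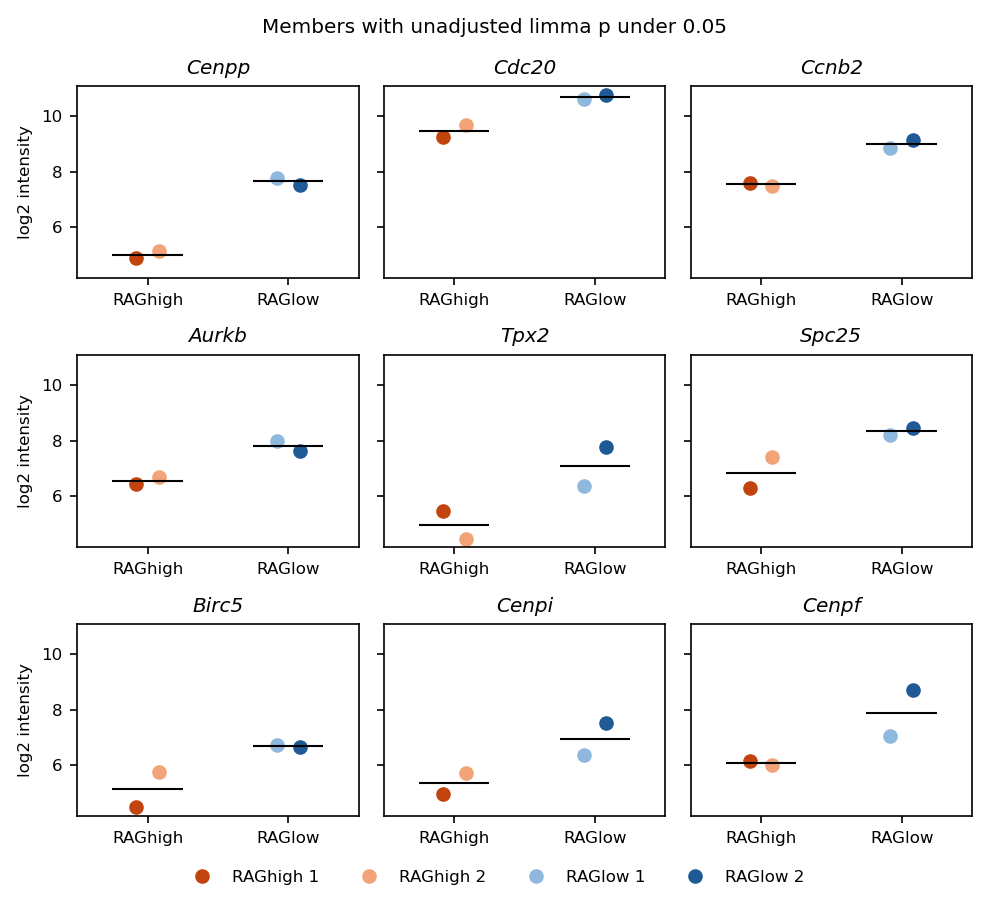
Log2 intensity on each array (points, 2 per group) and group means (lines) of the 9 members with an unadjusted limma p under 0.05, in order of p on 1 shared axis. Replicates of Cenpp, Cdc20, Ccnb2 and Aurkb lay within 0.44 of each other, while those of Tpx2 were at least 1.01 apart in both groups.

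The smallest p-values after Cenpp were those of the anaphase activator and the B-type cyclin, while the kinases Plk1 and Aurka overlapped. Cdc20 was at 9.24 and 9.69 in CLP_RAGhigh and at 10.61 and 10.77 in CLP_RAGlow, with nearest arrays 0.92 apart. The difference was -1.23 ± 0.24 or 2.34-fold (limma adjusted p = 0.528), and the 3 probe sets of Cdc20 ran from -1.39 to -0.56. Ccnb2, the partner of CDK1 at mitotic entry, was at 7.58 and 7.50 against 8.85 and 9.16. Its replicates lay closer together than the groups, and the difference was -1.46 ± 0.31 or 2.76-fold (limma adjusted p = 0.593).

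Tpx2, which activates Aurora A on the spindle, was at 5.47 and 4.47 in CLP_RAGhigh and at 6.38 and 7.78 in CLP_RAGlow. The groups did not overlap, and the difference was -2.11 ± 0.61 (limma adjusted p = 0.813). Its other probe sets gave smaller differences, -1.01, -0.24 and -0.081, and on each of them the groups overlapped. Aurka, the Aurora kinase of the spindle poles, was at 6.75 and 7.24 against 6.36 and 7.04. It had the highest difference of all members, 0.29 ± 0.42, with overlapping groups. Plk1, a kinase used from mitotic entry to exit, was at 5.10 and 6.20 against 5.70 and 6.12, a difference of -0.26 ± 0.48.

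Probe sets of 1 gene did not always go the same way. Of the 24 members with several probe sets, 17 had all of them on 1 side of 0 and 7 had not. Over all 92 probe sets of the members, 71 had a lower mean in CLP_RAGhigh, 32 lay wholly lower and 7 wholly higher. The shares over all 34945 probe sets were 48.5%, 15.2% and 15.5%. When probe sets below the median brightness in both groups were left aside, 67 probe sets of 39 members remained, of which 55 had a lower mean in CLP_RAGhigh, 26 lay wholly lower and 2 wholly higher. Of all 20335 such probe sets 49.9% had a lower mean, 17.4% lay wholly lower and 17.1% wholly higher. With all probe sets of each gene averaged, 34 of 41 members had a lower mean and 20 did not overlap (15.2% of all genes), with the same median of -0.45.

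**Figure D4:**
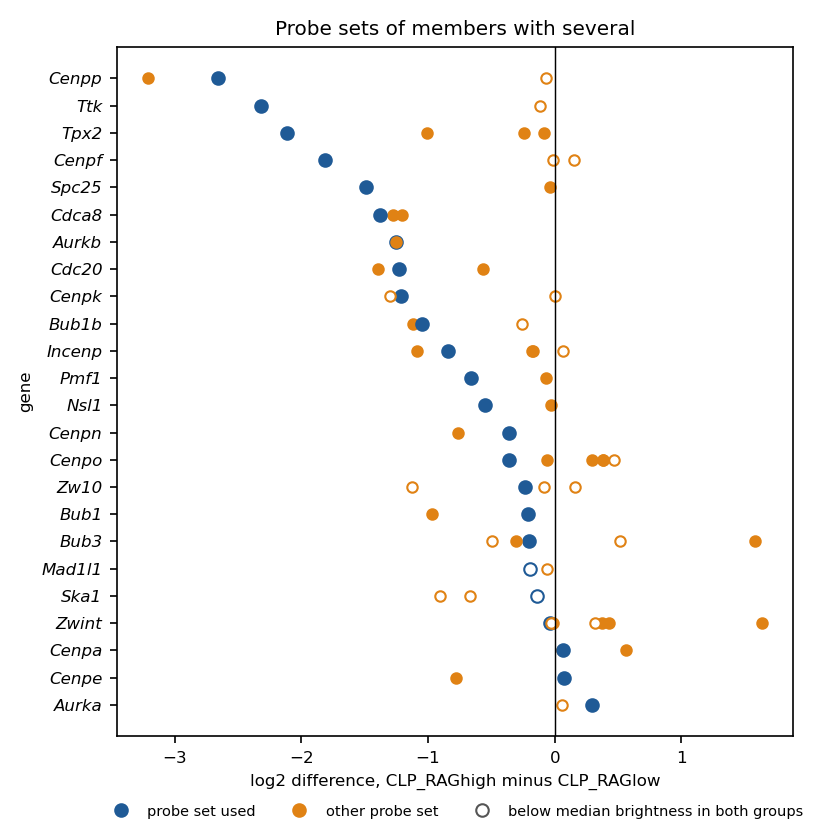
Log2 difference, CLP_RAGhigh minus CLP_RAGlow, of each probe set of the 24 members with several, with the probe set used in blue, the others in orange and those below the median brightness in both groups as open circles. All probe sets of Cdca8, Aurkb and Cdc20 lie at -0.56 or lower, and Bub3 and Zwint have probe sets above 1.5.

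Other genes of the same processes were taken from lists that do not contain the members. With limma 0 of them passed over all genes. Of 25 measured further centromere and kinetochore genes, 19 were lower by their means in CLP_RAGhigh and 6 were higher, 10 lay wholly lower (15.8% of all genes) and 0 wholly higher (15.4%), with a median of -0.41. Sgo1, the shugoshin that protects cohesion at centromeres, was at 4.87 and 5.86 against 7.04 and 7.37, a difference of -1.84 ± 0.46. Itgb3bp, which encodes the inner kinetochore protein CENP-R, differed by -1.21 ± 0.37, Oip5, which helps load CENP-A, by -0.95 ± 0.31, and Cenps by -1.85 ± 0.68.

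Genes of mitotic entry and exit had a median of -1.04 over 25 genes, 21 lower and 4 higher, and 14 lay wholly lower (15.8% of all genes) against 1 wholly higher (15.4%). Anln, which encodes the cytokinesis protein anillin, was at 5.04 and 6.17 against 7.77 and 8.25, a difference of -2.41 ± 0.50 (limma adjusted p = 0.587). Ccnf differed by -1.69 ± 0.51, the S and G2 cyclin gene Ccna2 by -1.91 ± 0.60, and Ckap2l by -1.91 ± 0.68. On CLP_RAGhigh replicate 1 this list deviated by -0.84, on CLP_RAGlow replicate 2 by 0.92, and on the inner arrays by 0.068 and 0.12, the same order as the members.

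The ubiquitin ligase and the chromosome-shaping complexes had medians nearer to 0. Over 19 genes of the anaphase-promoting complex and sister separation the median was -0.25, with 13 lower by their means (49.4% of all genes) and 6 higher. Of these 19, 6 lay wholly lower (15.8% of all genes) and 1 wholly higher (15.4%). An unadjusted limma p under 0.05 was found for 0 of them, against 2.94% of all genes lower and 2.35% higher. Anapc5 and Anapc13 differed by -0.25 ± 0.10 and -0.63 ± 0.28, the separase gene Espl1 by -1.17 ± 0.54 and Pttg1, which encodes securin, by -0.47 ± 0.30. Cohesin and condensin genes had a median of -0.046 over 18, with 10 lower (49.4% of all genes) and 8 higher by their means. Of these 18, 6 lay wholly lower (15.8% of all genes) and 2 wholly higher (15.4%). Within that list the condensin genes Ncaph and Ncapg were at -1.52 ± 0.45 and -1.68 ± 0.51 and the cohesin regulator Cdca5 at -1.85 ± 0.87, while the cohesin gene Stag2 was at 0.46 ± 0.23. Of 20 measured cell cycle transcription regulators 15 had a lower mean (49.4% of all genes), with a median of -0.33. Among these regulators 6 lay wholly lower (15.8% of all genes) and 1 wholly higher (15.4%). Lin54, the subunit of the MuvB complex that binds the homology region, was at 6.18 and 5.81 against 6.66 and 7.54, a difference of -1.10 ± 0.44, and E2f8, Lin37 and E2f1 differed by -1.501 ± 0.64, -0.90 ± 0.40 and -0.76 ± 0.45.

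**Figure D5:**
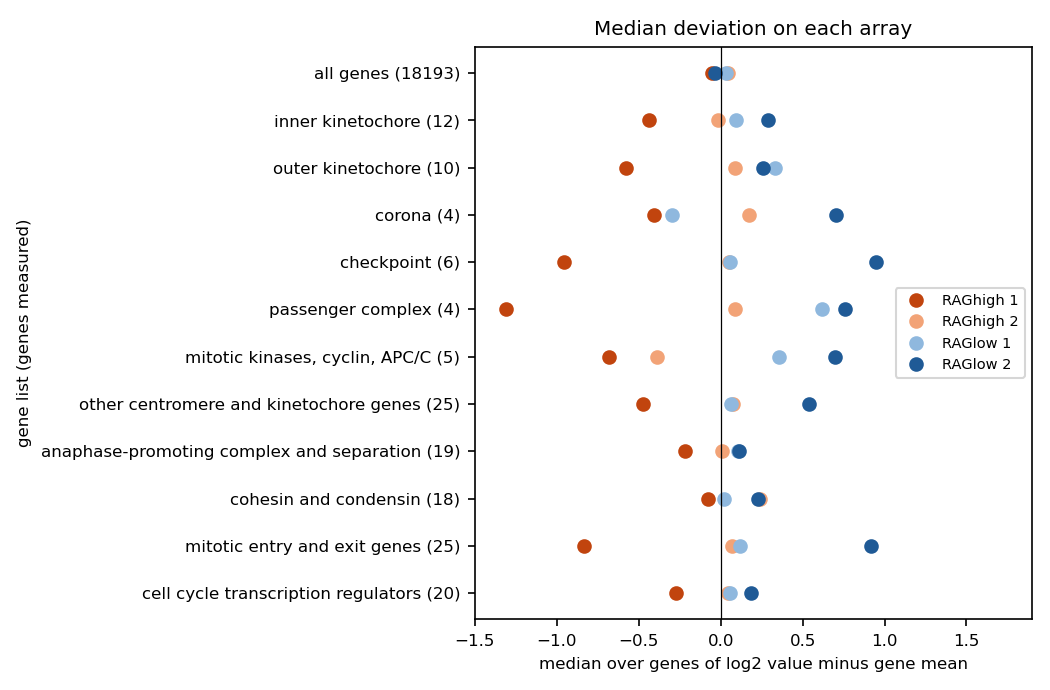
Median over the genes of each list of the log2 value minus the gene's mean over the 4 arrays, with 1 point per array and the number of measured genes in brackets. All genes lie near 0, while the passenger complex, checkpoint and mitotic entry lists spread widest, from CLP_RAGhigh replicate 1 on the left to CLP_RAGlow replicate 2 on the right.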

How the data were processed

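Expression was measured on Affymetrix MOE430_2 arrays, per the labels. The deposited values are RMA intensity values, 1 per probe set, per the labels' series design. RMA corrects background, normalizes between arrays and summarises probes. Software and version: not given in the sources used here. The values ran from 2.35 to 19893, a linear scale, and log2 was taken. Of 45037 probe sets other than controls, 34945 were annotated to 1 gene and used, which gave 18193 genes.

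Groups were compared with limma 3.58.1 in R 4.3.3 (lmFit, eBayes with intensity trend, two-sided, 2 residual and 3.75 prior degrees of freedom). P-values were adjusted by Benjamini-Hochberg over the 18193 genes, with calls made under 0.05. The number of arrays sets the precision.

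The members and lists were chosen with earlier results of these data known. All members are named. Values on every array are given for members with an unadjusted p under 0.05 and for the 2 further members of each role with the highest mean. Of each other list the 4 genes with the smallest p are named. Full values of other members, of secondary probe sets, and the marker genes named were chosen after their values were seen. Alternatives are given in the closing section. Figures were drawn with matplotlib 3.10.9.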

Additional observations from a re-analysis of the deposited data

How the results depend on the processing

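Across 12 alternatives the median difference of the members stayed below 0, from -0.81 without CLP_RAGhigh replicate 2 to -0.27 without CLP_RAGhigh replicate 1, and the members called at an adjusted p under 0.05 by limma stayed at 0. Over all genes, 0 were called in the main setting (535 lower and 428 higher had an unadjusted limma p under 0.05), against 7 with the replicate block, 2 with probe sets averaged, 1 with only genes above the median brightness and 3 with quantile normalization. The labels do not say that replicate numbers pair the samples. Deviations of same-numbered arrays from their group means had r = -0.02 across all genes and 0.02 across the members, which are not independent replicates. Such an r leaves out any shift that the genes share, so it cannot decide whether the samples are paired. Replicate 2 lay above replicate 1 for 31 members in CLP_RAGhigh and for 32 in CLP_RAGlow. With the replicate block, 15 members had an unadjusted p under 0.05 in the lower direction (3.14% of all genes). That count was 4 to 14, and the count of members with groups that do not overlap 20 to 28, when 1 array was left out, against 27.0% to 39.7% of all genes for the latter, since 2 arrays against 1 separate more easily.

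Of the 41 members, 20 kept their sign in every alternative that could be fitted and all 20 were lower in CLP_RAGhigh, Cenpp from -2.78 to -1.87, Ccnb2 from -1.62 to -1.31, Cdc20 from -1.45 to -1.003 and Aurkb from -1.44 to -1.02 among them. For 14 of the 20 the difference moved by over 1.5 times when 1 array was left out: Birc5 -2.20 to -0.95, Cdca8 -2.40 to -0.36, Cenpf -2.64 to -0.98, Cenpi -2.19 to -1.03, Cenpk -1.82 to -0.61, Cenpl -0.66 to -0.0071, Cenpm -1.29 to -0.19, Cenpn -0.53 to -0.20, Dsn1 -1.25 to -0.11, Incenp -1.62 to -0.0587, Mad2l1 -2.13 to -0.27, Spc24 -1.95 to -0.26, Spc25 -2.04 to -0.93 and Ttk -3.75 to -0.88. For 5 members there was no probe set without a suffix letter, and 2 lay below the median brightness. Spc25 went to -0.037 with only probe sets without a suffix letter. Median centring, quantile normalization, the offset of 32, the replicate block and the fit without intensity trend turned no sign of the 41. With probe sets averaged the sign turned for Bub3 (0.22), Cenpe (-0.35), Cenpo (0.18) and Zwint (0.38). Leaving out 1 array turned it within the following ranges: Aurka -0.0439 to 0.63, Bub1 -1.17 to 0.74, Bub1b -2.12 to 0.0334, Cenpa -0.16 to 0.28, Cenpc1 -0.67 to 0.19, Cenpe -0.30 to 0.45, Cenph -0.71 to 0.0628, Cenpo -0.82 to 0.0897, Cenpq -0.73 to 0.39, Cenpt -0.19 to 0.34, Mad1l1 -0.47 to 0.084, Mis12 -0.91 to 0.005, Ndc80 -1.22 to 0.57, Nsl1 -2.16 to 1.06, Nuf2 -0.56 to 0.81, Plk1 -0.81 to 0.29, Ska1 -0.60 to 0.33, Zw10 -0.60 to 0.12, Zwilch -0.98 to 0.76 and Zwint -0.43 to 0.36. In each case the turn follows from the array that was left out. In these fits the lone array of a group is assumed to vary like the arrays of the other group.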
